A study of Arabidopsis thaliana with 12 samples.

Results

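The genes described here encode arabinogalactan proteins and extensins, hydroxyproline-rich glycoproteins of the plant cell surface and cell wall. They were chosen from the gene descriptions in the authors' deposited table, as probe sets whose description holds the word arabinogalactan or extensin and which name a single locus. Of the 22746 probe sets tested, 40 matched, 2 were left out by locus, and 38 genes remained, each with 1 probe set. The description is empty for 66.8% of probe sets, so family members without a description are not among the 38. Transcripts were measured in leaves and in roots of Arabidopsis thaliana seedlings of the Col-0 accession, in the wild type (WT) and in a knockout (ko) of PDX1.3, whose product is a catalytic subunit of vitamin B6 (pyridoxal phosphate) synthase. All seedlings were 10 days old and had grown without vitamin B6 on Murashige and Skoog medium with 1% sucrose, under 16 h of light at 22 °C and 8 h of darkness at 18 °C. Each genotype was sampled in each organ, giving 4 groups with 3 biological replicates and thus 3 Affymetrix ATH1 arrays each. Only 1 mutant line was measured and no rescued line, so the effects of losing PDX1.3 and of anything else in which the lines differ cannot be told apart. Whole organs were sampled, in which fewer cells of a type and less RNA per cell cannot be told apart.

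Arabinogalactan proteins (AGPs) are carried through the secretory pathway, where prolines of the backbone are hydroxylated and large arabinose- and galactose-rich glycans are attached, and many are then held at the outer face of the plasma membrane by a lipid (GPI) anchor. The classical AGPs have a backbone rich in proline, alanine, serine and threonine, the AG peptides are very short versions of it, the fasciclin-like AGPs (FLAs) add fasciclin domains, which act in cell adhesion in animals, and the chimeric AGPs join an AGP region to another domain. Extensins are rod-like wall proteins with repeats of serine and several prolines, whose hydroxyprolines carry short arabinose chains and which peroxidases cross-link in the wall, and PERKs are receptor kinases with an extensin-like domain outside the cell. The 38 genes comprised 12 classical AGPs, 8 AG peptides, 2 chimeric AGPs, 11 FLAs, 2 extensins, 2 extensin-like receptor kinases and 1 further extensin-like gene, ELP. They lay on all 5 nuclear chromosomes, with 6, 10, 7, 5 and 10 genes on chromosomes 1 to 5.

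The deposited value is a signal, a linear intensity per probe set and array, scaled by the authors to the same 2% trimmed mean on every array. The median signal per array lay between 30.4 and 39.8, and 63.2 to 71.8% of probe sets were called present. Signals of replicate arrays correlated at 0.968 to 0.992 over all probe sets on the log2 scale. PDX1.3 itself gave 591, 942 and 935 in WT leaves against 40.5, 38.2 and 50.5 in pdx1.3 leaves, while in roots the WT signals were 264, 282 and 282 and the mutant signals 116, 95.8 and 82.1. Its signal was thus lower on every array that the titles label as mutant. Changes below are differences of mean log2(signal + 16), which understate the changes of dim genes, and a gene is said to be called, to have risen or to have fallen where limma gave an adjusted p under 0.05 over all 22746 probe sets. The number of arrays limits the precision. The p-values set differences of group means against the spread between these replicate samples, pooled over the 4 groups with a variance trend. Signals of different probe sets are not compared with each other.

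Of the 38 genes, 31 were called present on all 3 arrays of at least 1 group. The other 7 were AGP5, AGP6, AGP40, FLA3, FLA14, FLA20 and FLA21, and 4 of these (AGP40, FLA3, FLA20 and FLA21) were called absent on all 12 arrays. AGP6, AGP40, FLA3 and FLA14 are known as pollen genes. Of 6 pollen marker genes, 5 were absent on all arrays of every group. Presence on all arrays of a group was found for 24 genes in WT leaves, 23 in pdx1.3 leaves, 30 in WT roots and 30 in pdx1.3 roots. Besides genes absent everywhere, AGP2, AGP13, AGP30, FLA6 and FLA14 were absent on all 6 leaf arrays, and AGP6 was absent on all 6 root arrays.

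**Figure D1:**
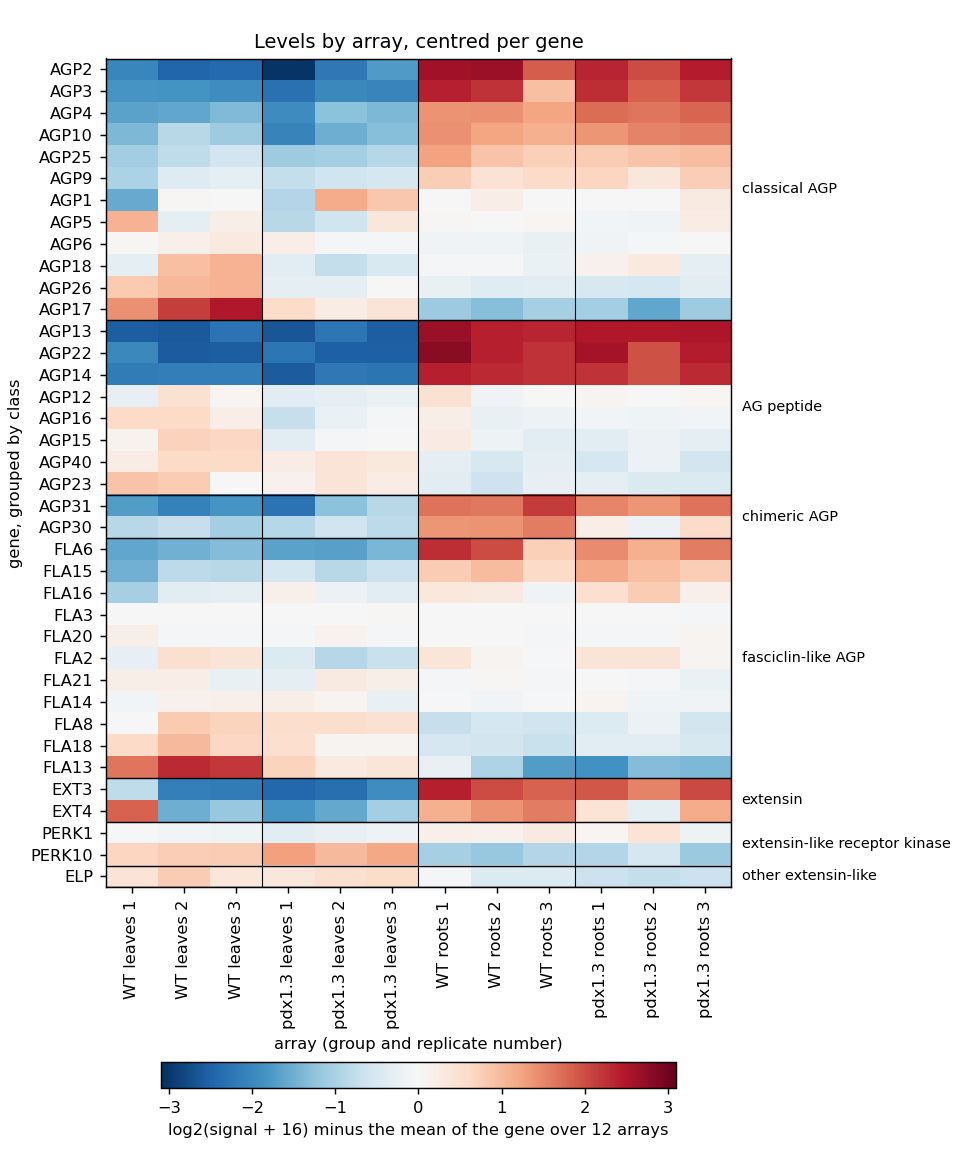
Level of each of the 38 genes (rows, grouped by class) on each of the 12 arrays (columns, by group and replicate), as log2(signal + 16) minus the mean of the gene over the 12 arrays, with red above and blue below that mean. The strongest contrast separates leaf from root arrays, and among leaf arrays AGP17, AGP26 and FLA13 are paler in pdx1.3 than in WT.

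The comparison of pdx1.3 leaves with WT leaves asks how the mutant differs in the organ where PDX1.3 gave its higher signals. In leaves 6 of the 38 genes fell in the mutant and none rose, by the limma test: the classical AGPs AGP17, AGP18 and AGP26, the AG peptide AGP16, and the fasciclin-like AGPs FLA2 and FLA13. That is 15.8% of the genes, beside 7.22% called among all probe sets, and all probe sets had 4.7% called higher and 2.51% called lower. The median log2 change was -0.15 over the 38 genes and 0.01 over all probe sets. At an unadjusted p under 0.05 there were 10 of the 38 genes, beside 21.2% of all probe sets. The 6 falls lay between 0.80 and 1.62 on the log2 scale, and the calls were lost for 3 of the genes when arrays were left out, as given with each gene. The genotypes did not overlap for 13 of the 38 genes in leaves, with 11 lower and 2 higher in the mutant. Among all probe sets 24.6% did not overlap, 10.2% with the mutant lower and 14.4% with the mutant higher.

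Among the 12 classical AGPs, 3 fell in leaves, none rose and 9 were not called. AGP26 (AT2G47930) gave signals of 258, 303 and 313 in WT leaves and 111, 113 and 141 in pdx1.3 leaves. Every mutant array lay below every WT array, and the mutant values were close to those of WT roots, 117, 104 and 108. The log2 change was -1.16 (SE 0.13, adjusted p = 0.000252), and AGP26 was called under all 23 alternative settings. AGP17 (AT2G23130), a lysine-rich AGP known from the susceptibility of roots to Agrobacterium transformation, gave 147, 253 and 326 in WT leaves and 74.4, 55.8 and 63.5 in pdx1.3 leaves. The groups did not overlap, although the first WT array was the lowest of its group. AGP17 fell by 1.62 (SE 0.24, adjusted p = 0.00164) and was called under all 23 alternatives.

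AGP18 (AT4G37450), also a lysine-rich AGP, which is needed for the start of female gamete formation, rested on a smaller gap. Its signals were 69.3, 184 and 205 in WT leaves and 67.2, 46.7 and 59.5 in pdx1.3 leaves. The first WT array lay just above the highest mutant array, and the rest of the WT arrays lay far above it. AGP18 fell by 1.09 (SE 0.29, adjusted p = 0.0428). It was called in 2 of the 12 fits that left out 1 array, without WT leaf array 1 or pdx1.3 root array 3, and the highest adjusted p among the other 10 was 0.142. It also lost its call without a variance trend, at an adjusted p of 0.0554, and with only leaf arrays in the fit, at 0.171.

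AGP1 (AT5G64310), picked after its values were seen, had uneven replicates in leaves and was not called. WT leaves gave 129, 421 and 406, and pdx1.3 leaves gave 211, 937 and 746. In each group the array numbered 1 was low and the other two were high, and the ranges overlapped. The log2 change was 0.87 (SE 0.48, adjusted p = 0.338). Without the first pdx1.3 leaf array it was 1.51 with an adjusted p of 0.0402, and without both leaf arrays numbered 1 it was 0.99 with an adjusted p of 0.00413. AGP1 was called in 1 of the 12 fits that left out 1 array, with adjusted p up to 0.725. AGP10 had a log2 change of -0.52 (SE 0.19, adjusted p = 0.131), and AGP9 gave 383, 586 and 626 against 455, 500 and 533.

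Of the 8 AG peptides, 1 fell in leaves and 7 were not called. AGP16 (AT2G46330) gave 2024, 2050 and 1544 in WT leaves and 796, 1157 and 1280 in pdx1.3 leaves. The genotypes did not overlap, and the mutant values reached into the range of the roots, where both genotypes lay between 1126 and 1522. AGP16 fell by 0.80 (SE 0.19, adjusted p = 0.025). The call was lost without the first or second WT leaf array (adjusted p = 0.0596 and 0.0817), without the first or second pdx1.3 leaf array (0.0739 and 0.0505), and with only leaf arrays in the fit (0.112). AGP15 (AT5G11740) gave 1879, 2852 and 2692 in WT leaves and 1359, 1681 and 1714 in pdx1.3 leaves, again with no overlap. Its log2 change was -0.62 (SE 0.20) with an adjusted p of 0.0861, and 0.027 without the first WT leaf array. Under 22 of the 23 alternatives AGP15 stayed uncalled, with adjusted p up to 0.231. AGP12 (AT3G13520) gave 1441, 2373 and 1791 against 1356, 1405 and 1482, so that the genotypes overlapped, and its log2 change was -0.37 (SE 0.20, adjusted p = 0.316).

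Among the 11 FLAs, 2 fell in leaves and 9 were not called. FLA13 (AT5G44130) gave 839, 1334 and 1227 in WT leaves and 420, 319 and 339 in pdx1.3 leaves. The lowest WT array lay well above the highest mutant array. FLA13 fell by 1.60 (SE 0.31, adjusted p = 0.00814) and was called under all 23 alternatives. FLA2 (AT4G12730) gave 448, 762 and 711 in WT leaves and 398, 285 and 329 in pdx1.3 leaves. The first WT and the first mutant array came near each other without overlap, and both root groups lay above the mutant leaves, at 536 to 715. FLA2 fell by 0.87 (SE 0.20, adjusted p = 0.0216). Its call was lost without WT leaf array 2 or 3 (adjusted p = 0.08 and 0.0742), without pdx1.3 leaf array 2 or 3 (0.085 and 0.0621), and with only leaf arrays in the fit (0.104).

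FLA18 (AT3G11700) lay just outside the threshold. WT leaves gave 416, 555 and 427 and pdx1.3 leaves gave 392, 284 and 285, with no overlap. The log2 change was -0.52 (SE 0.15, adjusted p = 0.056). It passed without the first WT leaf array (adjusted p = 0.0481), without the first pdx1.3 leaf array (0.0178), with the 3'/5' ratio of the actin control, which tracks RNA integrity, as a covariate (0.0223), and after median centring of the arrays (0.0419). Under 16 of the 23 alternatives FLA18 stayed uncalled, with adjusted p up to 0.189. FLA8 gave 453, 818 and 741 against 677, 671 and 636, with a log2 change of 0.02 (SE 0.19). FLA8 was picked after its values were seen.

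**Figure D2:**
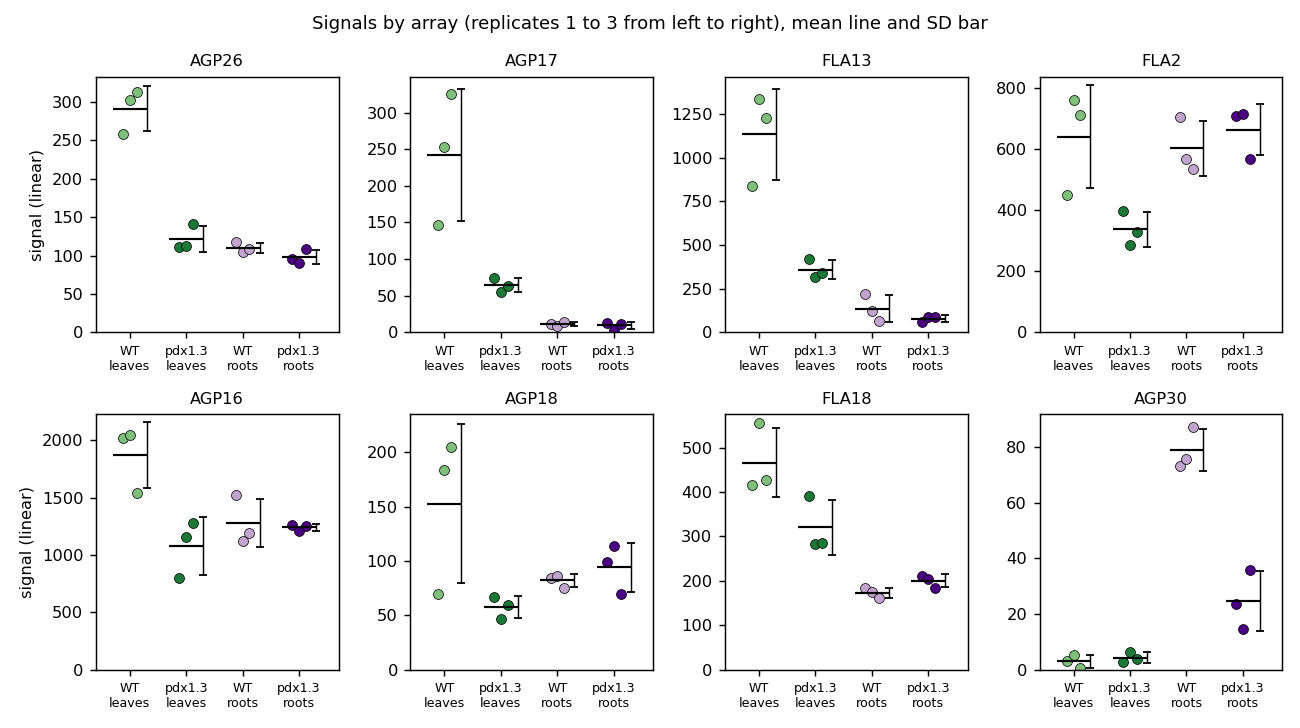
Signal on each array (points, linear scale from 0, replicates 1 to 3 from left to right) in the 4 groups for the 6 genes called in leaves, for FLA18 just outside the threshold, and for AGP30, called in roots; lines are group means and bars are the SD of 3 arrays. In the first 7 panels the pdx1.3 leaves lie below the WT leaves without overlap, and in the AGP30 panel the pdx1.3 roots lie at 14.5 to 36.0 below WT roots at 73.3 to 87.4.

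The chimeric AGPs, extensins, PERKs and ELP had no call in leaves. AGP31 (AT1G28290), a chimeric AGP of vascular tissue, gave 103, 77.0 and 96.0 in WT leaves and 64.7, 147 and 201 in pdx1.3 leaves. Its first mutant array lay below all WT arrays and the other two above them. The log2 change was 0.40 (SE 0.29, adjusted p = 0.479), and 0.81 with an adjusted p of 0.0338 without the first pdx1.3 leaf array. Under 21 of the 23 alternatives AGP31 stayed uncalled, with adjusted p up to 0.903. PERK10 (AT1G26150) gave 146, 159 and 161 in WT leaves and 230, 189 and 218 in pdx1.3 leaves, higher in the mutant with no overlap, but its log2 change of 0.41 (SE 0.16) had an adjusted p of 0.148. PERK1 (AT3G24550), a wound-inducible kinase in Brassica, gave 347, 332 and 319 against 279, 299 and 313. ELP (AT1G12090) gave 2311, 2953 and 2165 against 2199, 2404 and 2530, and its log2 change was -0.05 (SE 0.16).

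EXT4 (AT1G76930), an extensin known to be induced by wounding, had 1 WT leaf array far from the rest. Its signals were 333, 18.1 and 27.6 in WT leaves and 11.6, 16.6 and 31.4 in pdx1.3 leaves. Without the first WT array the genotypes shared the same range. The log2 change over all arrays, -1.20 (SE 0.67), had an adjusted p of 0.346, and without that array the change was -0.14. EXT3 (AT1G21310), the extensin needed for correct cell plates in the embryo, gave 38.4, 5.65 and 5.13 in WT leaves, highest on the same array, and 1.43, 2.56 and 8.95 in pdx1.3 leaves. It was called absent on the other two WT leaf arrays and on all 3 mutant leaf arrays. The EXT3 probe set is of a type that can cross-hybridise with related transcripts, per the file headers.

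In roots, 1 of the 38 genes was called, the chimeric AGP gene AGP30, which fell in the mutant. That is 2.63% of the genes, beside 0.809% called among all probe sets, 0.497% higher and 0.312% lower. AGP30 (AT2G33790) is a root gene known from seed germination and root regeneration. Its signals were 73.3, 75.8 and 87.4 in WT roots against 23.7, 14.5 and 36.0 in pdx1.3 roots. The groups were far apart, and all 6 root arrays were called present. AGP30 fell by 1.25 (SE 0.17, adjusted p = 0.00398), and its call held in each of the 12 fits without 1 array. The call was lost with only root arrays in the fit (adjusted p = 0.0642) and with a constant of 1 in place of 16, where the log2 change was -1.72 and the adjusted p 0.2. With a constant of 64 the change was -0.69 and the call held.

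The summed signal of 8 root marker genes lay at 4384 to 5701 in WT roots and 4366 to 4849 in pdx1.3 roots, and 1 of them, the iron transporter gene IRT1, fell. Most of the sum came from PYK10, with means of 3159 in WT roots and 3149 in pdx1.3 roots. CASP1 was lower in mutant roots without overlap, at 942 to 1495 against 897 to 931. NRT2:1, absent on all WT root arrays, was higher without overlap, at 5.75 to 16.2 against 21.1 to 68.4. Neither CASP1 nor NRT2:1 was called. The sums overlapped between the genotypes, and the part of these markers in the AGP30 result was not tested.

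The median log2 change in roots was -0.03 over the 38 genes and 0.01 over all probe sets. The genotypes did not overlap for 4 genes in roots, 2 lower (AGP30 and ELP) and 2 higher (AGP4 and FLA18) in the mutant, beside 11.1% of all probe sets, 5.32% with the mutant lower and 5.77% with the mutant higher. ELP gave 1643, 1273 and 1276 in WT roots against 1076, 1009 and 1066 in pdx1.3 roots. All mutant values were lower, but the log2 change of -0.40 (SE 0.16) had an adjusted p of 0.561. AGP4 (AT5G10430, also JAGGER), which acts in the blocking of extra pollen tubes in the ovule, gave 787, 810 and 701 in WT roots against 1010, 956 and 1058 in pdx1.3 roots. All mutant values were higher, with a log2 change of 0.39 (SE 0.16) and an adjusted p of 0.614. AGP4 was picked after its values were seen.

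EXT4 gave 194, 240 and 278 in WT roots against 116, 62.8 and 200 in pdx1.3 roots. The highest mutant array lay within the WT range, and the log2 change of -0.94 (SE 0.67) did not pass, at an adjusted p of 1. AGP31 gave 1260, 1214 and 1744 in WT roots against 1114, 997 and 1256 in pdx1.3 roots, with a log2 change of -0.31 (SE 0.29). Of the 6 genes that fell in leaves, none was called in roots, where their log2 changes lay between -0.57 (FLA13) and 0.14 (AGP18 and FLA2).

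Whether the change differed between the organs was tested with the interaction, the change in leaves minus the change in roots. It was called for 3 of the 38 genes, or 7.89%, beside 1.87% of all probe sets, and it was positive for 1 gene and negative for 2, beside 1.13% and 0.739% of all probe sets. AGP26 fell further in leaves than in roots, by a difference of -1.02 (SE 0.18, adjusted p = 0.0149), with a root change of -0.14 (SE 0.13). Its interaction was called in 11 of the 12 fits without 1 array and lost without the second WT root array (adjusted p = 0.0528). AGP17 differed by -1.53 (SE 0.34, adjusted p = 0.0414), but it was called in only 2 of those 12 fits, without the first WT leaf array or the second pdx1.3 root array, and the highest adjusted p was 0.122. AGP17 was called present on 1 of the 6 root arrays, with signals of 11.8, 8.26 and 13.5 in WT and 13.1, 3.92 and 12.1 in pdx1.3, and with a constant of 1 the adjusted p was 0.251.

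AGP30 differed the other way, by 1.35 (SE 0.25, adjusted p = 0.0175), with its fall in roots and a leaf change of 0.10 (SE 0.17). The leaf signals were 3.20, 5.28 and 0.628 in WT and 2.74, 6.42 and 3.87 in pdx1.3, and all 6 were called absent, so that a fall in leaves could not have been measured. The interaction of AGP30 was lost without the second WT root array (adjusted p = 0.0518), without the first pdx1.3 root array (0.052) and with a constant of 1 (0.139), and it was 0.72 with a constant of 64. For the other genes that fell in leaves, the interaction was not called, at an adjusted p of 0.326 for FLA13, 0.109 for FLA2, 0.209 for AGP16 and 0.182 for AGP18. A difference between the organs was therefore not shown for these 4 genes. Without the first WT leaf array, the interactions of AGP18 and FLA2 were called, at adjusted p of 0.00576 and 0.0198.

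**Figure D3:**
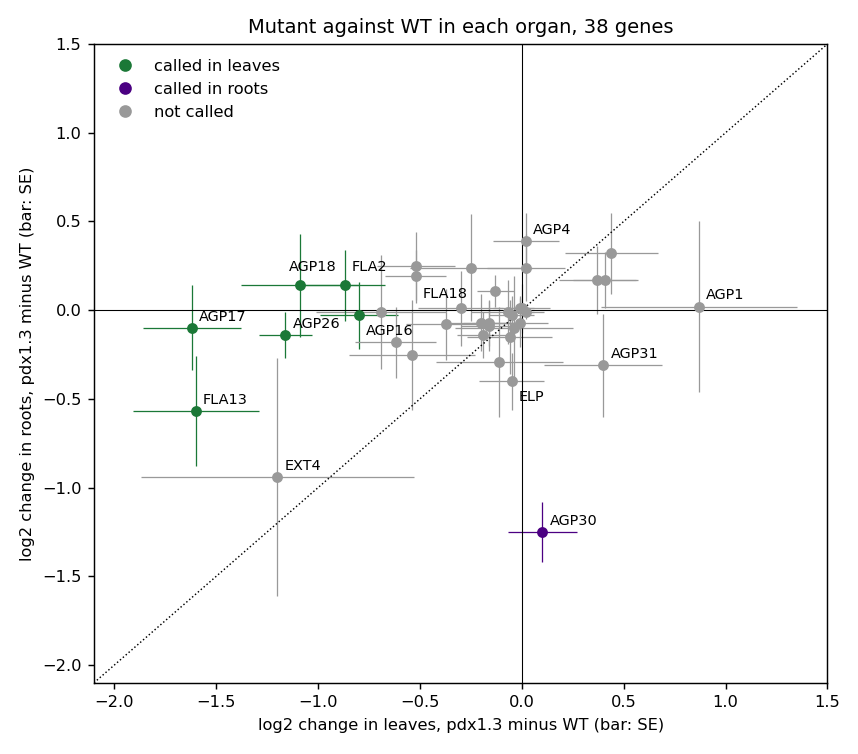
Change of each of the 38 genes between pdx1.3 and WT in leaves (x axis) and in roots (y axis), as differences of mean log2(signal + 16) with SE bars; the dotted line marks equal changes, green points were called in leaves and the purple point in roots. The 6 green points lie between -1.62 and -0.80 in leaves and between -0.57 and 0.14 in roots, and AGP30 lies at 0.10 in leaves and -1.25 in roots.

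The organs themselves were compared in the wild type. The difference was called for 27 of the 38 genes, or 71.1%, beside 52.5% of all probe sets. Of these, 12 genes were higher in leaves and 15 higher in roots, beside 20.9% and 31.7% of all probe sets. The median log2 difference, leaves minus roots, was -0.02 over the 38 genes and -0.05 over all probe sets. The signals of the organs did not overlap for 27 genes, 11 higher in leaves and 16 higher in roots, beside 59.2% of all probe sets, 24.5% and 34.7% in those directions. AGP6 and AGP40 are among the 12 higher in leaves but were called present on no array of either WT organ, so no fold is given for them.

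The AG peptides held genes far higher in roots beside genes with similar signals in both organs. AGP13 (AT4G26320) gave 2.87, 2.39 and 6.57 in WT leaves and 693, 571 and 556 in WT roots. All 3 leaf arrays were called absent, so that the size of the difference is uncertain. It was called by limma (adjusted p = 4.19e-11), and the signals gave a 169.6-fold higher level in roots. For such folds each leaf array was set to the higher of its own signal and the lowest signal called present on it. The fold was taken between means of log2 signals without a constant, that is between geometric means. For AGP13 and AGP2 every leaf signal already exceeded that floor. The floor comes from other probe sets and is not the detection limit of the gene, so these folds are not lower bounds. AGP22 (AT5G53250) gave 18.6, 7.27 and 7.66 in WT leaves and 944, 722 and 635 in WT roots, a log2 difference of -4.85 (SE 0.21, adjusted p = 6.07e-10). AGP22 was called absent on 2 of the 3 WT leaf arrays, and its difference ran from -6.08 to -3.45 over the alternatives, so its size is uncertain. AGP14 (AT5G56540), known from root hairs, was present on all leaf arrays at 31.1, 32.1 and 32.2 and gave 1113, 1049 and 989 in WT roots, a difference of -4.48 (SE 0.13). None of these 3 AG peptides changed with genotype in either organ by the limma test, with log2 changes between -0.19 and 0.01.

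AGP12, AGP15 and AGP16 had overlapping or nearby signals in the organs, and AGP23 was higher in leaves by 0.96 (SE 0.21, adjusted p = 0.0016). AGP12 gave 1441, 2373 and 1791 in WT leaves and 2392, 1574 and 1726 in WT roots, and its difference of -0.03 (SE 0.20) was not called. AGP16 and AGP15 were higher in leaves by 0.54 (SE 0.19, adjusted p = 0.0307) and 0.57 (SE 0.20, adjusted p = 0.0292). Both calls were lost with quantile normalization, at adjusted p of 0.127 and 0.244, and each held in 8 of the 12 fits without 1 array. The AGP16 call was also lost with the actin covariate (0.0738) and with the replicate block (0.0515), and the AGP15 call with only the compared arrays in the fit (0.0761). The calls were lost for AGP16 without WT leaf array 1 or 2 or WT root array 2 or 3, and for AGP15 without array 2 or 3 of WT leaves or of WT roots, at adjusted p of at most 0.125.

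Of the classical AGPs, 3 were called higher in leaves and 6 higher in roots. AGP2 (AT2G22470) gave 17.5, 8.91 and 9.54 in WT leaves, all called absent, and 817, 845 and 483 in WT roots. By geometric means it was 60.7-fold higher in roots, a fold of uncertain size (limma adjusted p = 2.35e-08). AGP3, AGP4, AGP10, AGP25 and AGP9 were also higher in roots, with log2 differences of -3.74, -2.90, -2.36, -1.77 and -1.16. AGP17 and AGP26 were higher in leaves, by 3.19 (SE 0.24, adjusted p = 1.39e-07) and 1.28 (SE 0.13, adjusted p = 1.82e-06). AGP17 was called present on 1 of the 3 WT root arrays, and its difference ran from 1.98 to 4.27 over the alternatives. With a constant of 64, the difference was -2.34 for AGP3, and that of AGP25 also shrank by over 1.5 times with its call kept. AGP18, their neighbour among the leaf falls, was not called between the organs, at 0.67 (SE 0.29, adjusted p = 0.0751). Without the first WT leaf array its difference was 1.10 with an adjusted p of 0.000228.

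FLAs divided between the organs. FLA13 gave 839, 1334 and 1227 in WT leaves and 217, 124 and 66.6 in WT roots, higher in leaves by 3.02 (SE 0.31, adjusted p = 2.58e-06). FLA18 and FLA8 were higher in leaves by 1.34 (SE 0.15) and 1.12 (SE 0.19). FLA6 gave 1.59, 3.13 and 5.07 in WT leaves, all called absent, and 245, 200 and 72.4 in WT roots. Its fold, taken as for AGP13, was 46.3 higher in roots and of uncertain size (limma adjusted p = 1.82e-06). FLA15 and FLA16 were higher in roots, with differences of -1.85 (SE 0.19) and -0.73 (SE 0.23), and the FLA16 call was lost without the first WT leaf array (adjusted p = 0.0645, difference -0.49), the first WT root array (0.0588) or the second (0.0551). The FLA15 difference was -1.21 with a constant of 64. FLA2 did not differ beyond its spread, at 0.06 (SE 0.20).

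Both chimeric AGPs were higher in roots. AGP31 gave 103, 77.0 and 96.0 in WT leaves and 1260, 1214 and 1744 in WT roots, a difference of -3.71 (SE 0.29, adjusted p = 1.76e-07). AGP30 was absent in leaves and 22.7-fold higher in roots, a fold taken as for AGP13 and of uncertain size (limma adjusted p = 1.37e-07). EXT3 gave 38.4, 5.65 and 5.13 in WT leaves and 483, 370 and 321 in WT roots, a difference of -3.78 (SE 0.31, adjusted p = 3.57e-07). With EXT3 absent on 2 of the 3 WT leaf arrays, the size is uncertain and ran from -5.05 to -2.51 over the alternatives. The difference of EXT4, -1.64 (SE 0.67), had an adjusted p of 0.0576, and without the first WT leaf array it was -2.70 with an adjusted p of 3.55e-05. PERK10 gave 146, 159 and 161 in WT leaves and 34.2, 29.6 and 38.6 in WT roots, higher in leaves by 1.78 (SE 0.16, adjusted p = 6.31e-07) and by 1.16 with a constant of 64. ELP was higher in leaves by 0.82 (SE 0.16, adjusted p = 0.000756) and by 0.52 with quantile normalization, and both calls held.

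**Figure D4:**
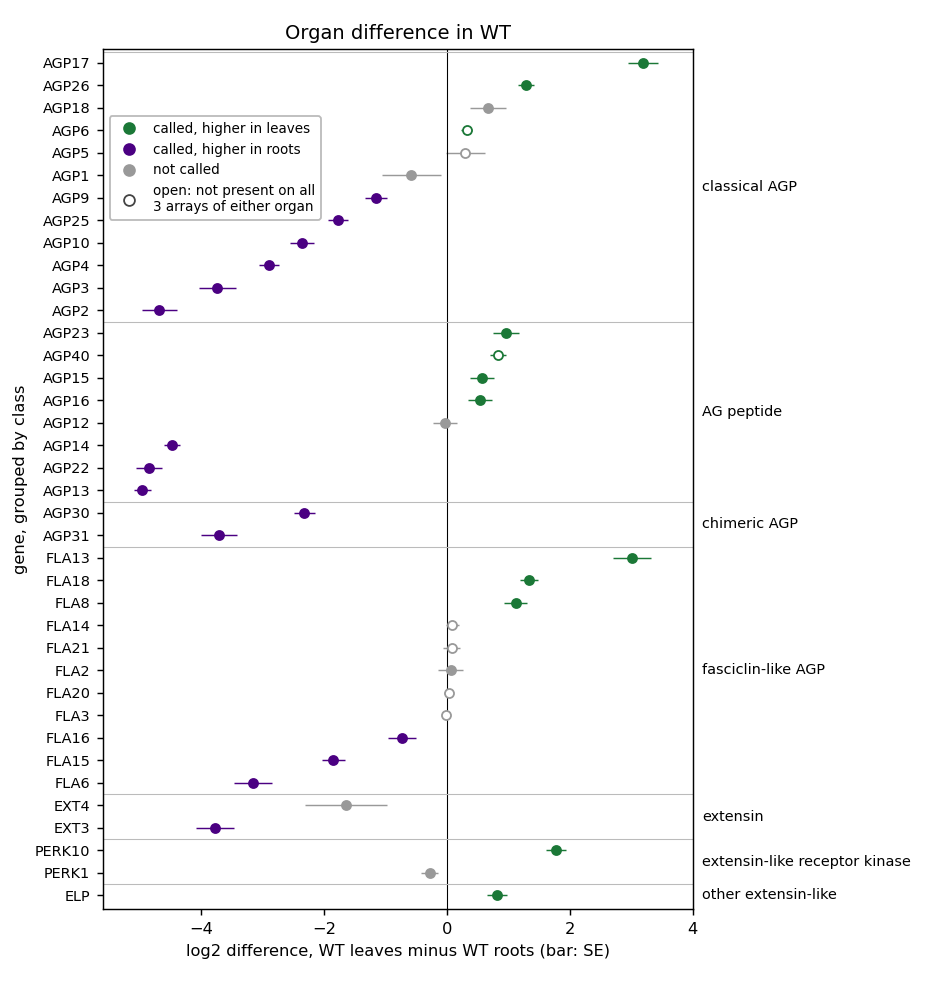
Difference between WT leaves and WT roots for each of the 38 genes (rows, grouped by class), as mean log2(signal + 16) in leaves minus that in roots with SE bars. Green points were called higher in leaves, purple points higher in roots, and grey points were not called; open points mark genes not called present on all 3 arrays of either organ. The points run from -4.96 (AGP13) to 3.19 (AGP17).

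The organ pattern of the genes that fell in the mutant was mixed. Of the 6 genes called in leaves, 4 (AGP16, AGP17, AGP26 and FLA13) were called higher in WT leaves than in WT roots, beside 12 of the 38 genes and 20.9% of all probe sets. AGP18 and FLA2 were not called between the organs, and the AGP16 organ call was lost under 7 of the 23 alternatives. The leaf and the organ comparison share the WT leaf arrays, so an array that is high or low in that group enters both. No conclusion is drawn from these shares, because the 6 genes were picked by their fall from those arrays. The summed signal of 6 green-leaf marker genes overlapped between the leaf groups, at 27092 to 32373 in WT and 26253 to 28127 in pdx1.3, as did that of 6 xylem and secondary wall markers, at 167 to 216 and 154 to 228. None of these 12 markers was called in leaves, and their part in the leaf falls was not tested.

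Single arrays lay apart in several genes, which were looked for after the values were seen. An array was counted as low where its signal was under 0.6 of the lower of the other two arrays of its group. In WT roots array 3 was low for AGP2, AGP3, FLA6 and FLA13, 4 of the 30 genes present there, against 1.5% of all probe sets present in that group. AGP3 (AT4G40090) gave 434, 384 and 145 in WT roots against 392, 288 and 371 in pdx1.3 roots. The summed signal of 5 root hair markers was 739, 703 and 331 in WT roots, lowest on the same array, and 715, 666 and 636 in pdx1.3 roots. In leaves, these markers summed to 26.5 to 32.2 in WT and 18.1 to 20.4 in the mutant, and 4 of the 5 were absent on all WT leaf arrays and all 5 on all mutant leaf arrays. The sum of the 6 xylem and secondary wall markers was also lowest on that array, at 471, 586 and 339 in WT roots. In pdx1.3 roots it was 478, 585 and 384. The other marker lists were not lowest on that array. In WT roots the 8 root markers summed to 5701, 4384 and 4614, and the 6 green-leaf markers to 617, 774 and 925. The 6 pollen markers, 5 of them absent there, summed to 20.3, 25.8 and 30.3. The part of these marker lists in the values of AGP2, AGP3 and FLA6 was not tested.

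In WT leaves the first array was low for AGP1, AGP17, AGP18, FLA15 and FLA16, 5 of the 24 genes present there. Of all probe sets present in that group, 4.14% were low on that array. It was high for 1 of the 24 genes, EXT4, at 333 against 18.1 and 27.6 on the other WT leaf arrays. High values on that array were not particular to these genes, as 6.29% of all probe sets present in that group were high on it. In pdx1.3 leaves the first array was low for AGP1 and AGP31, 2 of 23 genes, against 4.81% of probe sets. With both of these arrays left out, an alternative added after the data were seen, 8 of the 38 genes were called in leaves. Under that setting 1472 of the 22746 probe sets were called, 894 higher and 578 lower. Of the 6 original leaf calls 5 remained, with AGP16 lost (adjusted p = 0.111), while AGP1, AGP31 (0.88, adjusted p = 0.0307) and FLA18 (-0.74, adjusted p = 0.0118) were gained, so that 2 genes were then called higher.

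**Figure D5:**
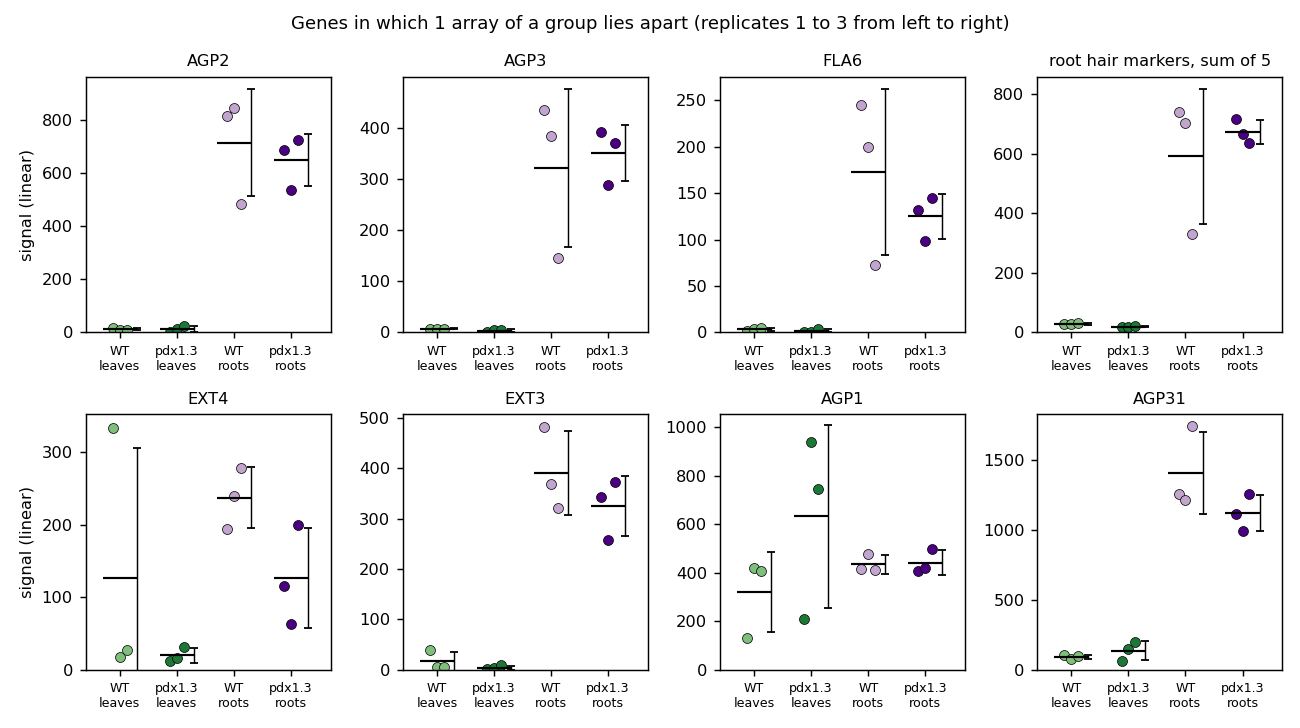
Signal on each array (points, linear scale from 0, replicates 1 to 3 from left to right) in the 4 groups for 7 genes in which 1 array of a group lies apart and for the summed signal of 5 root hair markers; lines are group means and bars are the SD of 3 arrays, cut off at 0. WT root array 3 is the lowest of its group for AGP2, AGP3, FLA6 and the root hair markers, and the first WT leaf array is the highest for EXT4 and EXT3.

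The enzymes that hydroxylate and glycosylate these proteins were examined as other genes of the pathway. Of 37 listed genes 32 were measured, and in leaves 1 rose and 1 fell, 6.25% beside the 7.22% of all probe sets. P4H5 (AT2G17720), a prolyl 4-hydroxylase that acts on extensins in root hairs, gave 236, 101 and 136 in WT leaves and 67.2, 54.7 and 56.9 in pdx1.3 leaves. The genotypes did not overlap, with the first WT array the highest. P4H5 fell by 1.13 (SE 0.24, adjusted p = 0.0136), and the call was lost without the second pdx1.3 leaf array (adjusted p = 0.0515) and with only leaf arrays in the fit (0.0863). The listed glucuronosyltransferase gene AT3G15350 gave 77.7, 111 and 93.9 in WT leaves and 134, 176 and 129 in pdx1.3 leaves. It rose by 0.56 (SE 0.15, adjusted p = 0.0395), but it was called in only 2 of the 12 fits without 1 array, without WT leaf array 2 or pdx1.3 root array 3, and the highest adjusted p was 0.15. Over all 23 alternatives the call was lost in 16, with adjusted p up to 0.157.

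None of the 32 enzyme genes was called in roots by limma, and 3 had an unadjusted p under 0.05, beside 6.85% of all probe sets. The genotypes did not overlap in roots for 3 of the 32, beside 11.1% of all probe sets. All 3 were lower in the mutant, beside 5.32% of all probe sets. In leaves the genotypes did not overlap for 9 of the 32, 3 lower and 6 higher in the mutant. Among all probe sets 24.6% did not overlap in leaves, 10.2% lower and 14.4% higher. The galactosyltransferase gene AT1G08280, picked after its values were seen, gave 87.1, 101 and 95.4 in WT roots against 38.1, 49.1 and 67.5 in pdx1.3 roots, lower in the mutant with no overlap. Its root change of -0.73 (SE 0.16) had an adjusted p of 0.057, and its interaction of 1.02 (SE 0.22) was called, at an adjusted p of 0.0376, in the fit of all arrays and in 1 of the 12 fits without 1 array. The 2 extensin peroxidases on the list, AT1G44970 and AT4G16270, were also lower in mutant roots with no overlap, by 0.52 and 0.29 on the log2 scale, and neither was called (adjusted p = 0.204 and 0.654). Between the WT organs, 19 of the 32 enzyme genes were higher in roots and 2 higher in leaves, 65.6% called in all, beside 52.5% of all probe sets, 31.7% higher in roots and 20.9% higher in leaves.

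The authors' deposited table gives its own fold change between the genotypes and the number of the 9 array pairs that changed in each direction. By the authors' rule of at least 2-fold and at least 7 pairs in one direction, the authors' deposited table has 4 of the 38 genes lower in leaves, AGP17, AGP18, AGP26 and FLA13, beside 1.38% of all probe sets, and none higher, beside 2.37%. In roots the authors' deposited table has AGP30 and EXT4 lower by that rule, beside 0.712% of all probe sets, and none higher, beside 0.686%. FLA2 and AGP16, which fell by the limma test, lay below 2-fold in the authors' deposited table, and EXT4, which passed that rule in roots, was not called by limma.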

How the data were processed

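RNA of 12 samples was hybridised to 12 Affymetrix ATH1 arrays, from 500 ng of total RNA each, per the labels' protocols. Sample titles gave the group and the replicate number. The genotype characteristic contradicts the title in all 12 samples, so it was set aside. The authors, per the file headers, summarised probes with MAS5 in GCOS (versions not given in the sources used here) into a scaled, linear signal intensity and a present, marginal or absent call per probe set and array. They also deposited a signed fold change, used here as the authors' score, and counts of pairwise change calls. The filtered lists of the authors were not used.

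The deposited intensities were used without further normalization. After 64 control probe sets were left out, log2(signal + 16) was fitted with limma 3.58.1 in R 4.3.3, as 4 group means over 12 arrays with a variance trend, on 22746 probe sets with Benjamini-Hochberg adjustment. The log2 values were computed from the deposited intensities. The fit was tested on simulated data. A second deposited table gives the intensities with fewer decimals, but 26560 of 272952 values differed by more than rounding (0.051), by up to 18.8 (up to 0.35 for the genes described). Probe sets naming several loci (1098) or none (89) gave no gene names. All 38 genes were found in a RefSeq gene table of TAIR10.1, used for symbols only. Sequences and coordinates were not used here, since the files name no genome build.

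The members, classes and lists were chosen with earlier results of these data known. Genes named in full were those called in leaves, roots or the interaction, in each class the probe set of highest signal in WT leaves and in WT roots (a way of picking, not a comparison of expression levels), the 4 largest organ differences in each direction, and called enzyme genes. Other genes were picked after their values were seen. Same-numbered samples of the 2 genotypes did not deviate together (correlations of deviations -0.211 to -0.007), so the numbers were not taken as pairs. Leaf and root samples of the same number were not checked in this way, and the main fit treated them as independent. Alternatives were quantile normalization, median centring, constants of 1 and 64, a filter keeping 16873 probe sets, the other table, a fit of the compared arrays only, no variance trend, a replicate block, the actin 3'/5' ratio as covariate, a 2-fold threshold and leaving out each array.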

Additional observations from a re-analysis of the deposited data

Results flagged for a closer look

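For 3 genes the change between pdx1.3 and WT differed between leaves and roots by the interaction term of the limma fit. The difference, leaf change minus root change on the log2 scale, was 1.35 for AGP30 (adjusted p = 0.0175), which fell in roots and was absent in leaves. It was -1.53 for AGP17 (adjusted p = 0.0414) and -1.02 for AGP26 (adjusted p = 0.0149), both of which fell in leaves. Across the alternatives the adjusted p ranged from 0.00472 to 0.139 for AGP30, from 0.00526 to 0.251 for AGP17 and from 0.00835 to 0.0528 for AGP26.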

How the results depend on the processing

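The number of genes called in leaves was 6 and ranged from 3 (without the second WT or second pdx1.3 leaf array) to 7 in the fits that left out 1 array. Of all probe sets, 1642 were called in the main fit, and 1199 and 1051 without those arrays. The gene count was 3 when the root arrays were kept out of the fit, which called 516 of all probe sets. In roots the 1 call held in all 12 fits that left out 1 array (1 to 1), and the count was 0 with a constant of 1 and 0 with only the root arrays. Those settings called 83 and 61 of all probe sets in roots, against 184 in the main fit. The interaction count was 3 and ranged from 0 (without the second WT root array) to 5, was 1 with a constant of 1 and was 8 without both leaf arrays numbered 1, a setting added after the data were seen. Among all probe sets, that setting called 557 for the interaction, against 425 in the main fit. The fit without the second WT root array called 137 of all probe sets, and a constant of 1 called 248. The organ count was 27, ranged from 24 to 27 in the fits that left out 1 array, and reached 29 under other alternatives. Of all probe sets, 11953 were called between the organs in the main fit and 10773 in the fit with 24 genes. In the fits with 29 genes, 13692 and 12379 were called. With the replicate block, 4 genes were called in leaves (AGP16 lost at an adjusted p of 0.0507 and AGP18 at 0.0653), 1 in roots, 2 for the interaction (AGP17 lost at 0.0547) and 26 between organs, and samples shared only a number. In the same order, the replicate block called 1372, 147, 338 and 11708 of all probe sets. Centring each array on its median moved the share of higher calls among all probe sets from 65.2% to 840 of 1681 calls in leaves and from 39.7% to 57.8% between the organs, where it moved the all-gene median from -0.048 to 0.119. The genes described split 0 higher and 7 lower in leaves and 15 and 14 between organs under that setting. Taking the probe set of lowest signal per locus gave no value of its own, because each gene has 1 probe set, and the fit of compared arrays has no interaction. Among the genes named in full, no called value reversed its direction under any alternative. FLA3, absent on all 12 arrays and not called between the organs at -0.01, was called at 0.16 after median centring (adjusted p = 0.0291). Signals called absent limit what can be said of AGP17 in roots and of AGP30 in leaves.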
